A study of Mus musculus with 24 samples.

Results

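The genes described here are 10 genes of the antioxidant response, *Nfe2l2*, *Hmox1*, *Nqo1*, *Gclc*, *Gclm*, *Sod1*, *Sod2*, *Cat*, *Prdx1* and *Txnrd1*, taken by symbol from the 16978 genes listed in the 2 expression tables of a study of Xinβ in the mouse heart. All 10 genes were listed in both tables and all 10 passed the filter on low values in both. RNA from hearts at postnatal day 7.5 was sequenced in 24 libraries, 4 in each of 6 groups, which were uninjected *Xinβ* KO hearts, uninjected wild-type (WT) hearts, and KO and WT hearts from pups that had received AAV9-GFP or AAV9-aYAP(S127A) at postnatal day 1. AAV9 is an adeno-associated virus that reaches the heart, and aYAP(S127A) is a YAP protein that the Hippo pathway cannot phosphorylate at an inhibitory serine. The groups are called KO, WT, KO/GFP, WT/GFP, KO/YAP and WT/YAP below.

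The *Xinβ* KO allele is a germline deletion of *Xirp2*, the gene for Xinβ, in which a LacZ-Neo cassette replaced part of the gene, so every cell of the mouse carried it. It was made in ES cells of the 129 strain and backcrossed to C57BL/6J, and the controls were littermates. The methods give both sexes for each group, but the Y-linked gene *Ddx3y* was at 39.5 to 49.6 CPM in all 4 uninjected WT libraries and at 3.68 to 56.2 CPM in the uninjected KO libraries, so this male-specific gene was not balanced between the 2 uninjected groups. Among the injected libraries it was under 1 CPM in 1 of 4 KO/GFP, 1 of 4 WT/GFP, 2 of 4 KO/YAP and 0 of 4 WT/YAP, where the lowest was 8.61 CPM. With *Ddx3y* as a covariate *Nfe2l2* and *Sod1* kept the calls given below for the injected hearts. Expression from the AAV9 vectors was driven by the cardiac troponin T promoter, so cardiomyocytes were the cells that made GFP or YAP, while the RNA came from all cells of the piece. Labels give the tissue as the heart apex and the methods as ventricle. The cardiomyocyte markers *Myh6*, *Tnnt2*, *Actc1*, *Tnni3*, *Pln*, *Ryr2* and *Mb* summed to between 48743 and 78018 CPM in every library. *Xirp2* itself lay between 0 and 0.972 CPM in the 12 KO libraries and between 56.0 and 168 CPM in the 12 WT libraries.

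NRF2, the protein made from *Nfe2l2*, is a transcription factor that KEAP1 holds in the cytoplasm and hands to the proteasome. Oxidants and electrophiles modify KEAP1, NRF2 then accumulates, pairs with a small MAF protein and binds antioxidant response elements near genes for haem breakdown, quinone reduction, glutathione synthesis and the thioredoxin system. Superoxide dismutases and catalase act further along, turning superoxide into hydrogen peroxide and hydrogen peroxide into water. Much NRF2 control is exerted on the protein, which RNA levels do not measure.

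Promoter sequence, from 250 bases before to 50 bases after the start of transcription (RefSeq, GRCm38.p6), was at hand for 8 of the 10 genes, *Nfe2l2*, *Nqo1*, *Gclm*, *Sod1*, *Sod2*, *Cat*, *Prdx1* and *Txnrd1*. The core of the antioxidant response element, TGACNNNGC on either strand, occurred at 5 of the 10 start sites of these 8 genes, while 12.4% of all 32851 promoters of the same length, also counted by start site, held it. The 5 matches are printed in the direction of the gene, with 10 bases on each side and the match in capitals, and the coordinates cover the printed bases. *Nfe2l2* has it at chr2:75704885-75704913 on the minus strand, 240 bases before the start. *Gclm* has it at chr3:122245413-122245441 on the plus strand, 134 bases before. *Sod1* has it at chr16:90220696-90220724 on the plus strand, 56 bases before, *Prdx1* at chr4:116685456-116685484 on the plus strand, 133 bases before, and *Txnrd1* at chr10:82859104-82859132 on the plus strand, 92 bases before the second of its 3 starts.
Nfe2l2 site: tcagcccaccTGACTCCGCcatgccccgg
Gclm site: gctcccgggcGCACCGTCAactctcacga
Sod1 site: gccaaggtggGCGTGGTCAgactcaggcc
Prdx1 site: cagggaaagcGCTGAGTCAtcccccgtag
Txnrd1 site: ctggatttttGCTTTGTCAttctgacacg
In *Gclm*, *Sod1*, *Prdx1* and *Txnrd1* the capitals are the element read on the opposite strand. A 7-base AP-1 motif, TGACTCA on either strand, occurred only in *Prdx1* among the 8 genes, against 5.2% of all promoters. It lies there at chr4:116685352-116685378 and at chr4:116685458-116685484, and the second of these overlaps the antioxidant element of that gene.
Prdx1 first AP-1 site: aacgaggaaaTGACTCAaagggcagtg
Prdx1 second AP-1 site: gggaaagcgcTGAGTCAtcccccgtag
The TEAD motif CATTCC, searched because YAP acts through TEAD factors, was in 0 of the 8 genes and in 14.7% of all promoters. These are letters within a short window and say nothing of binding.

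*Nfe2l2* and *Sod1* were the genes whose RNA passed the test in a comparison below, so the 250 bases before their starts are printed, at chr2:75704664-75704913 on the minus strand and chr16:90220512-90220761 on the plus strand, with the antioxidant element in capitals.
Nfe2l2 upstream: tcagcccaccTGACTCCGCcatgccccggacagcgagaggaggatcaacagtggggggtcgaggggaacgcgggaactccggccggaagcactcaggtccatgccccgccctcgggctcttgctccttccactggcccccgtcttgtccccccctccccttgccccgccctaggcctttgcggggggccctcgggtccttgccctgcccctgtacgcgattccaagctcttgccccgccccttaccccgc
Sod1 upstream: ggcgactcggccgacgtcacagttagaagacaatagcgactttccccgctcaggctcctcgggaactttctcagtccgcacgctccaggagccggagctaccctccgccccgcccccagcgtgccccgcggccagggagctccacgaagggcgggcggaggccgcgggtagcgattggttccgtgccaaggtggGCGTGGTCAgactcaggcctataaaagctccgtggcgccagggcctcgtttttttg

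In GRCm38 (GENCODE M21) the whole genes lie at chr2:75675513-75704641 (*Nfe2l2*), chr8:75093621-75100589 (*Hmox1*), chr8:107388225-107403206 (*Nqo1*), chr9:77754535-77794485 (*Gclc*), chr3:122245557-122270732 (*Gclm*), chr16:90220754-90226329 (*Sod1*), chr17:13006846-13040063 (*Sod2*), chr2:103453849-103485160 (*Cat*), chr4:116685544-116700822 (*Prdx1*) and chr10:82833951-82897712 (*Txnrd1*). *Nfe2l2*, *Nqo1* and *Cat* are on the minus strand and the others on the plus strand.

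The uninjected libraries held 20490875 to 31154155 reads on listed genes and the injected ones 15015038 to 19444404, and the fewest reads behind a value of the 10 genes, *Gclm* in WT/YAP replicate 4, were 145. Levels are CPM as deposited, that is reads relative to library size with a further scaling between libraries. The uninjected and injected tables were made with different read lengths and scaled separately, so no test crosses them. KO replicate 1 of the uninjected set stood apart in several of these genes. It had the highest *Sod1* (659 CPM) and *Sod2* (522 CPM) of all libraries and the lowest *Gclm* (7.72 CPM) and lowest *Gclc* of its group (13.8 CPM), and uninjected results that rest on it are given with and without it. WT/GFP replicate 4 had the lowest *Hmox1* of all libraries (8.66 CPM), a low *Gclm* (10.7 CPM) and the highest erythroid marker sum (8425 CPM).

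Divided by transcript length, *Sod1* led in every group. In uninjected WT hearts *Sod1*, the copper and zinc superoxide dismutase of the cytosol, stood at 409.8 CPM per kb. *Sod2*, the manganese enzyme of mitochondria, followed at 65.9, *Cat*, the catalase of peroxisomes, at 65.8 and *Prdx1*, a peroxide-reducing peroxiredoxin, at 48.7 CPM per kb. The ranges of these 3 overlapped, so their order is not fixed by the data. *Nfe2l2* came next at 24.7 CPM per kb, then *Txnrd1*, the thioredoxin reductase of the cytosol, at 17.0. The inducible targets were lowest, with *Nqo1*, a quinone reductase, at 7.72, *Hmox1*, the inducible haem oxygenase, at 6.84, and *Gclc* and *Gclm*, the catalytic and modifier subunits of the enzyme that makes the first bond of glutathione, at 5.01 CPM per kb and below. The ranges of *Nqo1* and *Hmox1* overlapped. In KO/YAP hearts the order was the same, with *Gclc* and *Gclm* overlapping as well.

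**Figure D1:**
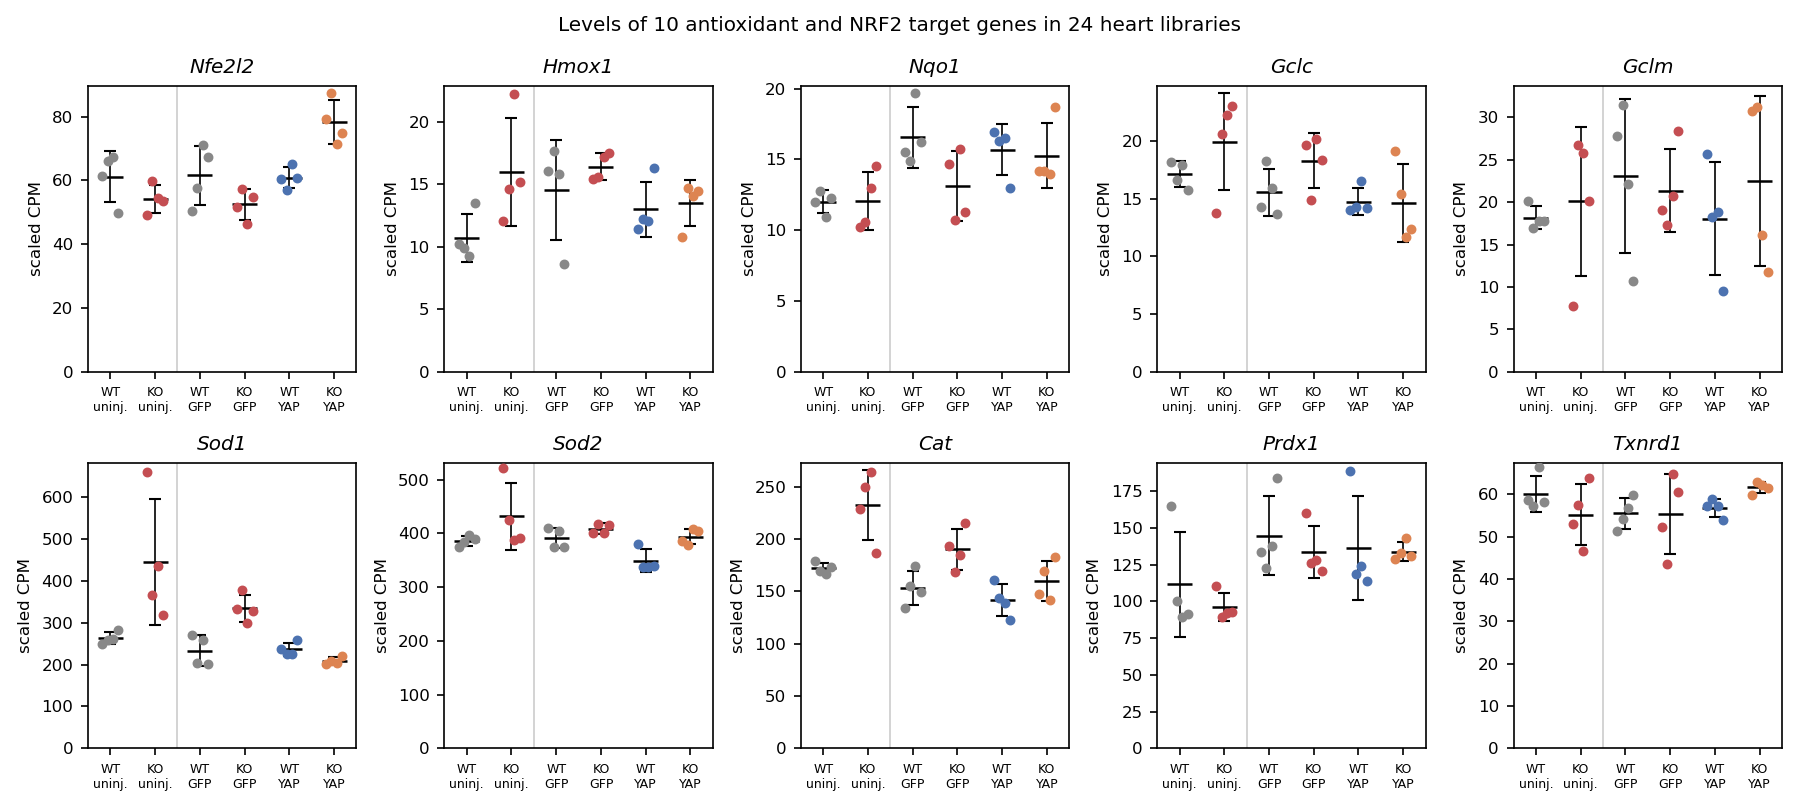
Levels of the 10 genes in each of the 24 libraries. Each panel is 1 gene, the vertical axis is its level in CPM as deposited and starts at 0, each point is a library, bars are the mean with the SD of 4 libraries, and the grey line separates the 2 tables. The 4 KO/YAP libraries are the highest injected ones for *Nfe2l2*, and the 4 KO/GFP libraries are the highest injected ones for *Sod1*.

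The first comparison asked what loss of Xinβ did to these genes in uninjected hearts. By limma 0 of the 10 genes passed the test (adjusted p under 0.05), while 6.69% of the 15598 genes tested did, 3.23% higher and 3.46% lower in KO. At an unadjusted p under 0.05 limma had 3 of the 10 (*Sod1*, *Cat* and *Hmox1*) and 3517 of all genes tested. DESeq2 called 2 of the 10, and it called more of all genes than limma did, as given below. With plain CPM, without the deposited scaling, the limma calls were 354 higher and 1246 lower in place of 504 and 540. The median log2 fold change of the 10 genes was 0.08, against 0.0011 over all genes tested, with 7 values above 0 and 3 below. *Sod1* and *Cat* had no overlap between the groups, which held for 16.4% of all genes.

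*Sod1* measured 659, 365, 436 and 318 CPM in the 4 KO hearts and 248, 258, 262 and 282 CPM in the 4 WT hearts. Every KO heart was above every WT heart, but the KO values were widely spread. The log2 fold change was 0.70 (SE 0.20, limma adjusted p = 0.071), and without KO replicate 1 it was 0.49 and passed (adjusted p = 0.027, with 0.0095 to 0.18 over all the alternatives tried). Part of this gene is shared with the pseudogene *Gm8566*, with which 23.1% of the 50-base words of the *Sod1* transcript were shared and which was listed in the uninjected table only. *Gm8566* measured 87.4, 48.4, 58.0 and 43.4 CPM in KO and 27.3, 31.7, 33.0 and 35.9 CPM in WT, in the same order of KO hearts as *Sod1*, and its log2 fold change was 0.83 (SE 0.20, limma adjusted p = 0.046). Reads of these 2 loci cannot be fully told apart, and their summed CPM gave 0.72 (limma adjusted p = 0.066).

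*Cat* measured 229, 249.6, 264 and 187 CPM in KO and 179, 169, 167 and 173 CPM in WT. Again the groups did not overlap, with KO replicate 4 nearest to WT. The log2 fold change was 0.42 (SE 0.12, limma adjusted p = 0.063), and without that library it was 0.52 and passed (adjusted p = 0.0068, with 0.0046 to 0.17 over all the alternatives). With *Ddx3y* as a covariate *Cat* passed (0.55, limma adjusted p = 0.0046) and *Sod1* did not (0.79). *Cat* lies on chromosome 2, 35.9 Mb from *Xirp2*, and *Nfe2l2* lies 8.1 Mb from it. A stretch of 129 chromosome kept beside the deletion cannot be told apart from the deletion itself for genes so placed.

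Of the inducible targets, *Hmox1* measured 12.1, 14.6, 22.2 and 15.2 CPM in KO and 10.2, 9.93, 9.25 and 13.5 CPM in WT, and 1 WT heart lay within the KO range. The log2 fold change was 0.52 (95% interval 0.09 to 0.94, limma adjusted p = 0.14). *Nqo1* had a log2 fold change of 0.00017 with an interval of -0.30 to 0.30. *Gclm* had 0.0066 with an interval of -0.74 to 0.75, which leaves its change poorly measured, since 1 KO heart was at 7.72 CPM and the others between 20.1 and 26.8. Without that heart, KO replicate 1, *Gclm* had 0.39 (limma adjusted p = 0.073). *Gclc* had 0.18 and passed only without KO replicate 1 (0.34, limma adjusted p = 0.045, with 0.045 to 0.89 over all the alternatives).

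*Nfe2l2* measured 49.0, 59.7, 54.5 and 53.4 CPM in KO and 61.5, 66.2, 67.4 and 49.7 CPM in WT. The groups overlapped through 1 WT heart, and the log2 fold change was -0.17 (SE 0.12, limma adjusted p = 0.47). *Sod2* (0.15), *Prdx1* (-0.17) and *Txnrd1* (-0.13) had intervals that crossed 0, and *Sod2* had 0.05 without KO replicate 1. *Prdx1* was set by single hearts, at 165 CPM in WT replicate 1 against 89.5 to 100.4 in the other 3.

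In injected hearts the same genotype comparison could be made under GFP. Of the 10 genes 1 passed, *Sod1*, against 13.7% of the 14597 genes tested, 6.43% higher and 7.22% lower in KO/GFP (939 and 1054 genes, or 588 and 1761 with plain CPM). *Sod1* measured 333, 378, 298 and 327 CPM in KO/GFP and 271, 203, 259 and 200.3 CPM in WT/GFP. No KO/GFP heart fell into the WT/GFP range, as was so for 15.3% of all genes, and *Sod1* was the only 1 of the 10 with this pattern. Its log2 fold change was 0.52 (SE 0.10, limma adjusted p = 0.0032), a rise of 1.44-fold on the log2(CPM + 1) scale.

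*Cat* measured 193, 168, 185 and 215 CPM in KO/GFP and 134, 155, 174 and 149.5 CPM in WT/GFP, with 1 WT/GFP heart inside the KO/GFP range. Its log2 fold change was 0.31 (95% interval 0.08 to 0.55, limma adjusted p = 0.071). *Hmox1* was at 16.4 ± 1.09 CPM (SD, n = 4) in KO/GFP and 14.6 ± 4.04 in WT/GFP, where WT/GFP replicate 4 had 8.66 CPM and the other 3 between 15.8 and 17.7. *Nqo1* measured 14.7, 10.7, 15.7 and 11.3 CPM in KO/GFP and 15.5, 14.9, 19.7 and 16.2 in WT/GFP, a log2 fold change of -0.33 (95% interval -0.63 to -0.02, limma adjusted p = 0.15) with overlapping groups. *Nfe2l2* had -0.22 (limma adjusted p = 0.21). *Gclc* (0.22), *Gclm* (-0.03), *Sod2* (0.07), *Prdx1* (-0.10) and *Txnrd1* (-0.02) had intervals that crossed 0, the narrowest being that of *Sod2*, -0.08 to 0.21. The 2 genotype comparisons used different hearts and different tables. *Sod1*, *Cat*, *Hmox1*, *Gclc* and *Sod2* had positive log2 fold changes in both, and *Nfe2l2*, *Prdx1* and *Txnrd1* negative ones.

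The next comparison asked how active YAP changed these genes in KO hearts. Of the 10 genes 2 passed, *Nfe2l2* higher and *Sod1* lower in KO/YAP, against 14.8% of all genes tested, 7.85% higher and 6.92% lower (1146 and 1010 genes, or 2155 and 590 with plain CPM). *Nfe2l2*, *Sod1* and *Hmox1* had no overlap between KO/YAP and KO/GFP, which held for 17.5% of all genes. The median log2 fold change of the 10 genes was -0.04, against 0.01 over all genes tested.

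*Nfe2l2* measured 79.3, 87.5, 71.5 and 74.8 CPM in KO/YAP and 51.7, 57.3, 46.2 and 54.9 CPM in KO/GFP. It measured 50.3, 57.6, 71.0 and 67.2 CPM in WT/GFP and 60.3, 57.1, 65.0 and 60.8 CPM in WT/YAP. All 4 KO/YAP hearts were above all 12 other injected hearts, although the lowest of them exceeded the highest WT/GFP heart by little. The log2 fold change of KO/YAP over KO/GFP was 0.57 (SE 0.11, limma adjusted p = 0.0024), a rise of 1.48-fold. KO/YAP over WT/YAP gave 0.36 (SE 0.11, limma adjusted p = 0.29) and KO/YAP over WT/GFP 0.35 (limma adjusted p = 0.68), 2 comparisons in which 0.0411% and 0.0206% of all genes passed and 0 of the 10.

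*Sod1* measured 201, 209, 204 and 220.2 CPM in KO/YAP, all below the lowest KO/GFP heart at 298 CPM. In WT/YAP it measured 237, 224, 225 and 259 CPM, above all KO/YAP hearts by a small margin. Its log2 fold change of KO/YAP over KO/GFP was -0.67 (SE 0.10, limma adjusted p = 5.5e-04). Against WT/YAP it was -0.18 (95% interval -0.39 to 0.04) and against WT/GFP -0.15 (-0.36 to 0.07), and the KO/YAP and WT/GFP hearts overlapped. KO/GFP hearts are shared by this comparison and the genotype comparison under GFP, so a high *Sod1* in them enters both.

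*Hmox1* measured 10.8, 14.7, 14.1 and 14.5 CPM in KO/YAP and 15.4, 15.6, 17.2 and 17.5 CPM in KO/GFP. Although the groups did not overlap, the log2 fold change of -0.27 had an interval of -0.65 to 0.11 (limma adjusted p = 0.34). *Gclc* had -0.32 (interval -0.63 to -0.0083, limma adjusted p = 0.16) and *Cat* -0.25 (-0.48 to -0.02, limma adjusted p = 0.14). *Nqo1* (0.21) and *Txnrd1* (0.17) had positive values and *Sod2* (-0.05), *Gclm* (-0.02) and *Prdx1* (0.01) values near 0, all with intervals that crossed 0. *Hmox1*, *Nqo1*, *Gclc*, *Gclm*, *Prdx1* and *Txnrd1*, genes known as NRF2 targets, did not pass in the comparison in which the *Nfe2l2* RNA rose. *Gclm* spread from 11.8 to 31.2 CPM within KO/YAP alone, which gave it the widest interval, -0.76 to 0.72.

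In WT hearts active YAP gave 0 calls among the 10 genes and 0 among all 14597 tested by limma, 0% of them, while 1011 genes had an unadjusted p under 0.05 edgeR called 0 and DESeq2 called 11. *Nfe2l2* had a log2 fold change of -0.0053 (interval -0.23 to 0.22) and *Sod1* 0.03 (-0.19 to 0.25). The smallest p of the 10 was that of *Sod2*, at 381, 338, 337 and 340.1 CPM in WT/YAP with the WT/GFP hearts reaching 409 CPM, a log2 fold change of -0.16 (limma adjusted p = 0.70). The difference between the response to YAP in KO and in WT hearts was tested as an interaction, in which 7.56% of all genes passed (554 higher and 550 lower, or 885 and 345 with plain CPM). Of the 10 genes 2 passed, *Nfe2l2* with 0.57 (SE 0.15, limma adjusted p = 0.032) and *Sod1* with -0.70 (SE 0.15, limma adjusted p = 0.010). The *Nfe2l2* interaction missed the threshold when any of 7 single hearts was left out, with adjusted p up to 0.066 (KO/YAP replicate 2).

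**Figure D2:**
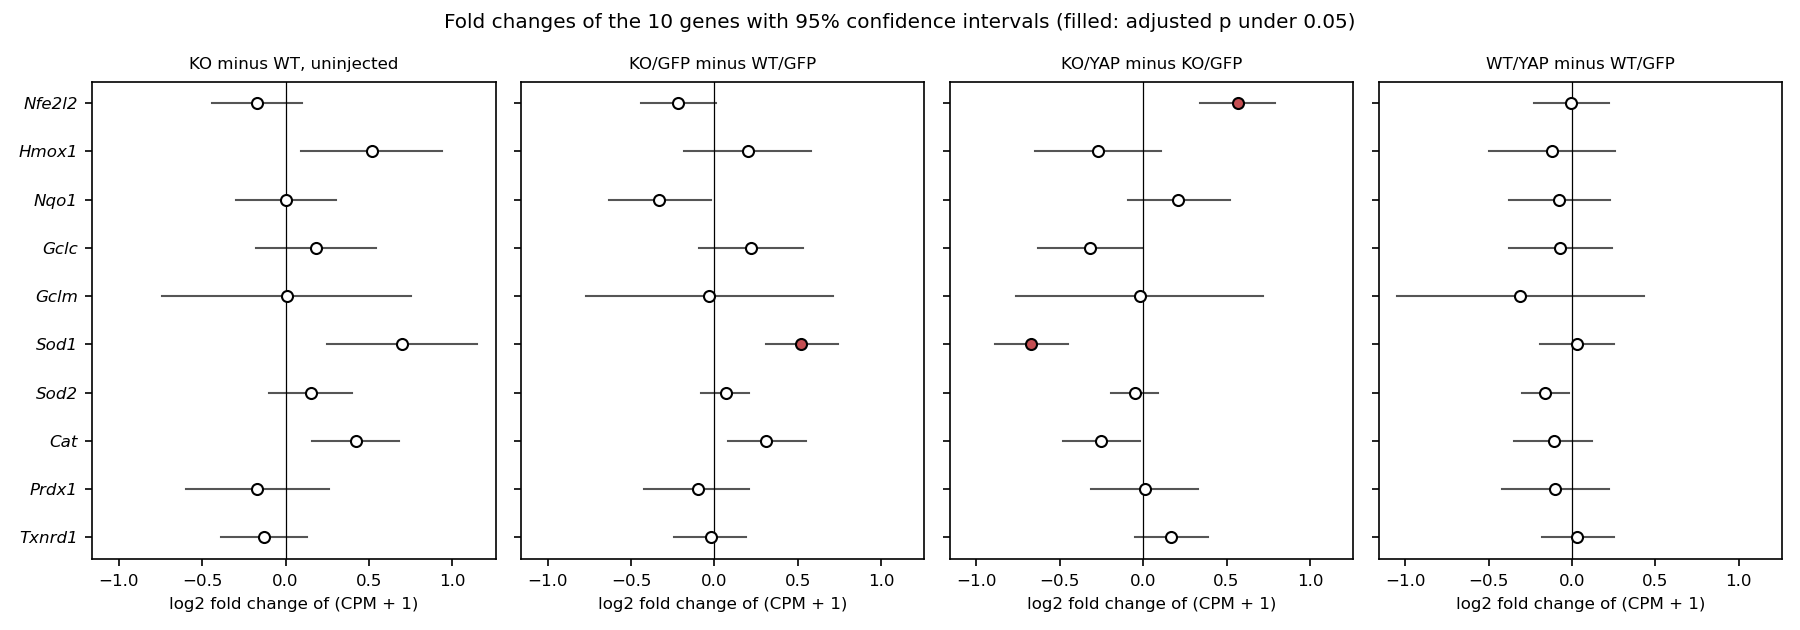
Log2 fold changes of the 10 genes in 4 comparisons. Each row is a gene, the horizontal axis is the log2 fold change of (CPM + 1), lines are 95% confidence intervals and filled points passed the test. Only *Sod1* under GFP and *Nfe2l2* and *Sod1* under YAP in KO hearts are filled.

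Over the 16 injected libraries, the genes nearest to *Nfe2l2* in pattern, by the root mean square difference of standardized log2 levels, were *Trmt5* (0.43), *Tm9sf4* (0.45) and *Mapkapk3* (0.47). Those nearest to *Sod1* were *Eci1* (0.28), an enzyme of fatty acid oxidation, *Apobec2* (0.32), a muscle member of the APOBEC family, and *Gm45507* (0.35). A value of 0 would be the same profile over the libraries, which share depth and scaling within a library.

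The wider antioxidant system was read from 9 lists with 101 genes, of which 100 were tested in each table. In uninjected hearts 16 rose in KO and 0 fell, a total that shrank when single libraries were left out, as given list by list below. Under GFP 19 rose and 6 fell in KO. With YAP in KO hearts 6 rose and 21 fell, and in the comparisons KO/YAP over WT/YAP, KO/YAP over WT/GFP and WT/YAP over WT/GFP 0 of the 100 passed by limma. At an unadjusted p under 0.05 these 3 had 15, 9 and 14 of the 100, beside 1627, 888 and 1011 of all 14597 genes tested, and DESeq2 called 1, an NADPH supply gene in KO/YAP over WT/YAP. The counts called in the first 3 comparisons stand against the 6.69%, 13.7% and 14.8% of all genes given above. The lists were chosen with earlier results of these data known, so this contrast is no independent test of them. The median log2 fold changes of the 100 genes were 0.10, 0.01 and -0.09 in the first 3 comparisons, beside 0.0011, -0.0092 and 0.01 over all genes tested. Of the 100 genes 65, 53 and 39 had positive values.

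**Figure D3:**
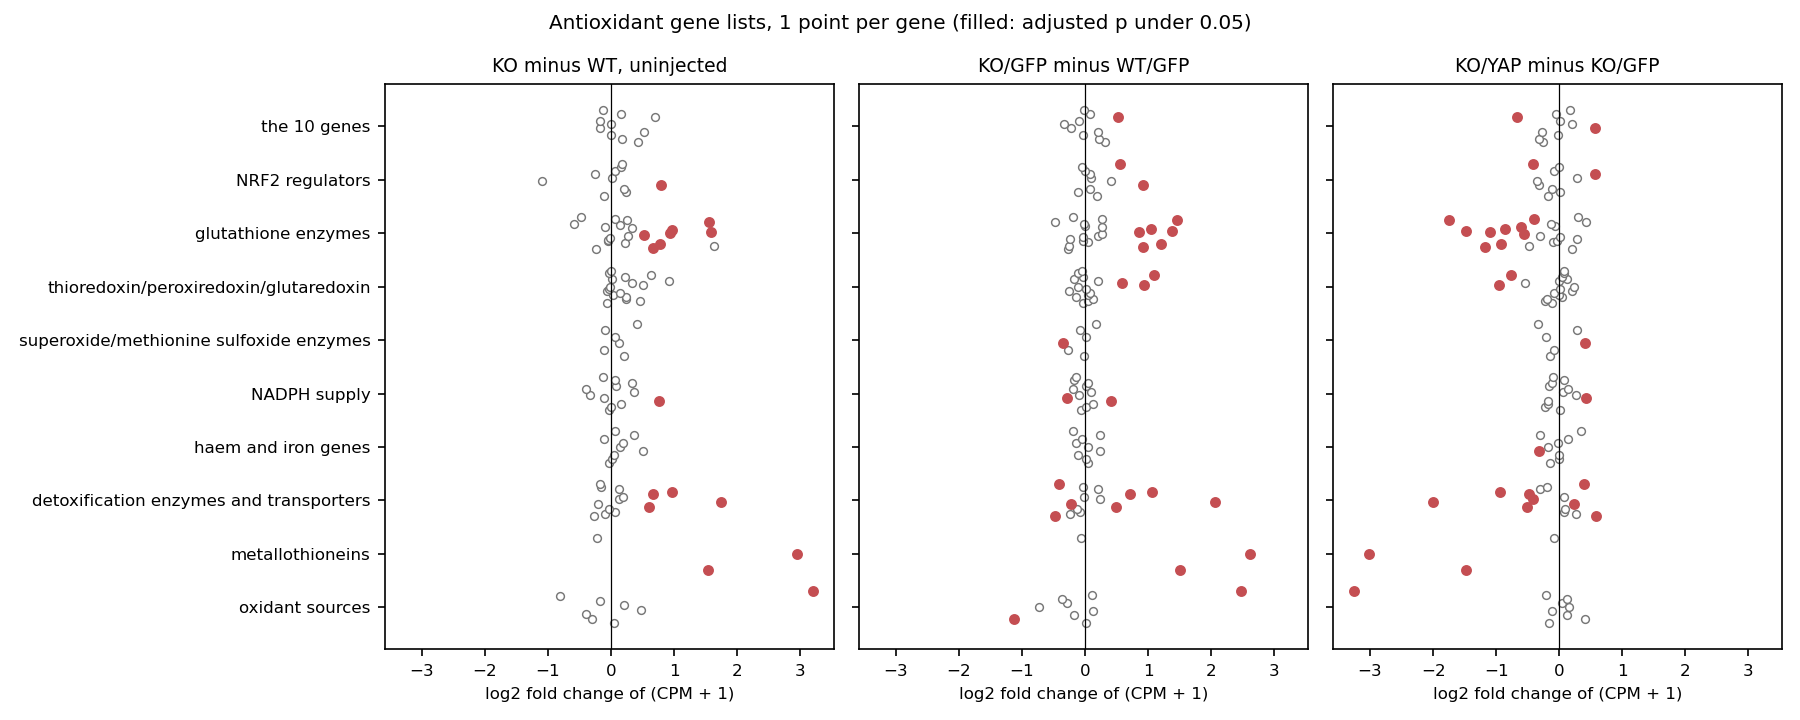
Log2 fold changes of the 10 genes and of 9 further antioxidant gene lists, 1 point per gene. The rows are the lists, the horizontal axis is the log2 fold change of (CPM + 1) in 3 comparisons, and filled points passed the test. In the glutathione and metallothionein rows the filled points lie to the right in both genotype comparisons and to the left for KO/YAP over KO/GFP.

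Among regulators of NRF2 and its relatives, 1 of 10 genes rose in uninjected KO hearts and 2 under GFP, beside 6.69% and 13.7% of all genes called, and counts so near the background are no result about the list. *Maff*, a small MAF protein of the kind that pairs with NRF2, measured 8.94, 8.70, 9.99 and 9.29 CPM in KO and 3.73, 4.51, 6.67 and 5.11 CPM in WT, a log2 fold change of 0.79 (limma adjusted p = 0.020). Under GFP *Maff* rose by 0.91 (limma adjusted p = 0.0054) and *Sqstm1*, the gene for p62, which can draw KEAP1 away from NRF2, by 0.55 (limma adjusted p = 0.0025). In KO/YAP hearts *Sqstm1* fell by 0.42 on the log2 scale (limma adjusted p = 0.012). *Nfe2l1*, which encodes the NRF2 relative NRF1, measured 103, 88.2, 77.0 and 116 CPM in KO/YAP and 78.1, 50.7, 54.2 and 75.8 CPM in KO/GFP, with slightly overlapping groups and a log2 fold change of 0.57 (limma adjusted p = 0.036). *Keap1*, named for its role and outside the rule for naming genes, did not pass, with 0.20 in uninjected hearts, 0.07 under GFP and -0.12 for YAP in KO hearts. The uninjected count of 1 became 0 without KO replicate 2 or 3 or without WT replicate 1, 2 or 4. With only the 2 groups compared in the fit, the counts of 2 under GFP and of 2 with YAP became 1 each, and the latter was also 1 without KO/GFP replicate 2 or 3 or KO/YAP replicate 1, 2 or 4.

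Of 21 glutathione enzymes, 7 of 21 tested rose in uninjected KO hearts, 6 of 20 rose under GFP, and 9 of 20 fell in KO/YAP, with 0 in the opposite direction each time. Of all genes tested, 3.23% were called higher, 6.43% higher and 6.92% lower in the same order. With only the KO/YAP and KO/GFP hearts fitted the count of 9 became 7, and fewer of all genes were called as well. *Gstm1*, a cytosolic glutathione transferase, measured 94.6, 83.6, 87.2 and 53.6 CPM in KO and 23.9, 22.8, 25.4 and 29.5 CPM in WT. It measured 69.0, 54.3, 43.9 and 82.8 CPM in KO/GFP, 27.6, 21.8, 25.2 and 18.2 in WT/GFP, 15.1, 22.4, 24.4 and 25 in KO/YAP and 21.8, 18.3, 25.6 and 25.6 in WT/YAP. Both KO groups without YAP stood apart from all other groups of their table. The log2 fold changes were 1.59 in uninjected hearts (limma adjusted p = 0.0024), 1.37 under GFP (adjusted p = 3.6e-04) and -1.47 for YAP in KO (adjusted p = 1.7e-04). *Mgst1*, a membrane-bound glutathione transferase, had 1.56, 1.45 and -1.74 in the same order. *Gpx3*, the secreted glutathione peroxidase, had 0.78, 1.21 and -0.92, *Gstm2* had 0.97, 1.04 and -0.86, and *Ggt5*, a gamma-glutamyltransferase, had 0.66, 0.92 and -1.18, each past the test in all 3. The interaction passed for 7 of the 20, beside 7.56% of all genes, each time with a negative value. The same KO/GFP hearts enter the GFP comparison, the YAP comparison and the interaction, for this list and for those below. In WT hearts 0 of the 20 passed for YAP, and *Gpx3* averaged 54.8 CPM in WT/GFP and 87.8 in WT/YAP while *Gstm2* averaged 17.1 and 23.7. In uninjected hearts the count of 7 became 3 without WT replicate 1, 2 or 3 and 4 without WT replicate 4 or KO replicate 2.

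*Mt1* and *Mt2*, metal-binding and radical-scavenging metallothioneins, rose in both genotype comparisons. They are 2 of the 3 genes of their list, beside 3.23% and 6.43% of all genes called higher. The third, *Mt3*, which the rule for naming genes leaves out, was not called. It averaged 6.42 CPM in KO and 7 in WT, and 8.58 in KO/GFP and 8.4 in WT/GFP. *Mt2* measured 21.8, 43.5, 50.8 and 18.1 CPM in KO and 2.93, 2.71, 3.50 and 3.30 CPM in WT. It measured 52.0, 25.5, 36.4 and 54.0 CPM in KO/GFP, 10.3, 6.19, 5.22 and 3.18 in WT/GFP, 5.81, 6.08, 2.17 and 3.43 in KO/YAP and 2.96, 8.20, 6.51 and 11.1 in WT/YAP. The lowest KO/GFP heart was above the highest of the other 12 injected hearts. The log2 fold changes of *Mt2* were 2.95, 2.61 and -3.02 (limma adjusted p = 0.0016, 3.0e-04 and 7.9e-05), and those of *Mt1* 1.53, 1.5 and -1.48. *Xdh*, the gene for xanthine oxidoreductase, which can produce superoxide, measured 16.2, 41.9, 64.6 and 18.6 CPM in KO and 2.39, 2.81, 1.38 and 3.21 CPM in WT. Under GFP it ranged from 11.1 to 72.6 CPM in KO and from 2.50 to 12.4 in WT, which overlapped through 1 heart of each group, and its log2 fold change was 2.48 (limma adjusted p = 0.0028). Of the other oxidant sources *Cybb*, the phagocyte NADPH oxidase subunit, fell in KO/GFP, at 2.69 to 3.36 CPM against 4.40 to 12.4 in WT/GFP (limma adjusted p = 0.0077).

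**Figure D4:**
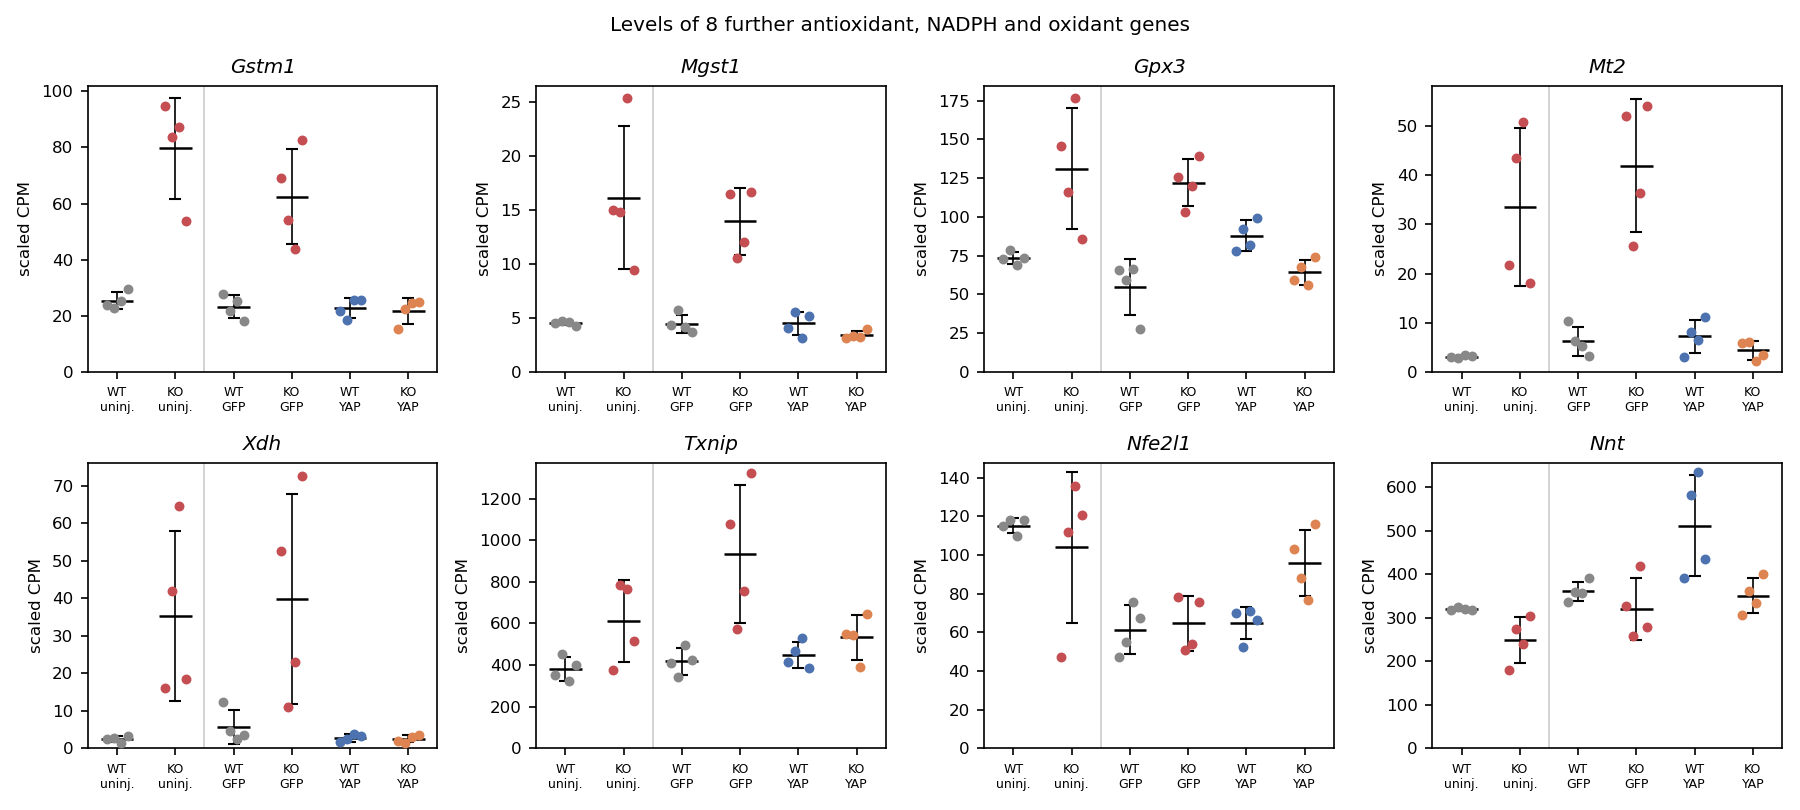
Levels of 8 further genes in the 24 libraries, each panel 1 gene, with CPM as deposited on the vertical axis from 0, a point per library and the mean with the SD of 4 libraries. *Gstm1*, *Mgst1*, *Gpx3*, *Mt2* and *Xdh* are high in KO and KO/GFP and near the WT groups in KO/YAP, while *Nfe2l1* is high in KO/YAP among the injected groups and *Nnt* varies within groups.

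Among 14 detoxification enzymes and transporters, 4 rose in uninjected KO hearts and 0 fell, 4 rose and 3 fell under GFP, and 3 rose and 5 fell in KO/YAP, with 3 and 4 in all in the last 2 when only the 2 groups compared were fitted. Of all genes tested 3.23% rose and 3.46% fell in uninjected hearts, 6.43% and 7.22% under GFP, and 7.85% and 6.92% in KO/YAP. Fewer of all genes were called in the 2-group fits as well, as given below. The uninjected count became 2 without any 1 of the libraries other than KO replicates 1 and 4. The total of 7 under GFP became 3 or 4 without KO/GFP replicate 1 or 4 or WT/GFP replicate 1, 2 or 4, and the total of 8 with YAP became 3 to 5 without KO/GFP replicate 1 or 4, KO/YAP replicate 1, 2 or 3 or WT/YAP replicate 3. *Aox1*, an aldehyde oxidase, had log2 fold changes of 1.75, 2.06 and -2.00, *Ephx2*, the soluble epoxide hydrolase, 0.97, 1.06 and -0.94, and *Ephx1* 0.66, 0.71 and -0.48. *Abcc1*, a transporter that exports glutathione conjugates, moved the other way, with 22.0 to 32.1 CPM in KO/GFP, 35.7 to 38.2 in WT/GFP and 33.1 to 48.4 in KO/YAP, a log2 fold change of -0.47 under GFP (limma adjusted p = 0.021) and 0.58 for YAP in KO (adjusted p = 0.0060).

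Of 17 thioredoxin, peroxiredoxin and glutaredoxin genes 0 passed by limma in uninjected hearts, with 4 at an unadjusted p under 0.05 (3517 of all 15598 genes) and 2 called by DESeq2 (1951 of all genes). Without KO replicate 1 or 4 limma found 2. Under GFP 3 rose, beside 13.7% of all genes called. *Txnip*, which binds and inhibits thioredoxin, measured 1076, 575, 758 and 1323 CPM in KO/GFP and 408, 343, 498 and 424 CPM in WT/GFP, a log2 fold change of 1.10 (limma adjusted p = 0.0031), and fell by 0.76 in KO/YAP (adjusted p = 0.025). *Sesn1*, a stress-induced sestrin, rose by 0.94 and fell by 0.96. *Sesn2* rose by 0.58 under GFP (adjusted p = 0.049). Both falls lost their call when only the KO/YAP and KO/GFP hearts were fitted, and 1 was left without KO/GFP replicate 1 or KO/YAP replicate 3.

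Genes that supply NADPH, the electron donor of both the glutathione and thioredoxin systems, passed for 1 of 12 genes in uninjected hearts, 2 under GFP and 1 with YAP, beside 6.69%, 13.7% and 14.8% of all genes, so these counts also lie near the background. *Me1*, the malic enzyme of the cytosol, rose by 0.76 in uninjected KO hearts (limma adjusted p = 0.028) and by 0.41 under GFP (adjusted p = 0.016). *Me3*, a mitochondrial malic enzyme, fell by 0.29 under GFP and rose by 0.42 with YAP. The uninjected count became 0 without any 1 of the libraries other than KO replicates 1 and 4. The count under GFP became 1 without KO/GFP replicate 1, 2 or 4, WT/GFP replicate 1, 2 or 3 or WT/YAP replicate 3, and with only the 2 groups compared in the fit. *Nnt*, the mitochondrial transhydrogenase, in which C57BL/6J mice carry a deletion, was read in all 24 libraries at 180.2 to 634 CPM and passed in no comparison. Of 6 superoxide and methionine sulfoxide enzymes, *Msrb1*, a methionine sulfoxide reductase, fell by 0.35 under GFP and rose by 0.41 with YAP. The fall was not called when only the 2 groups compared were fitted, or without KO/GFP replicate 4 or WT/GFP replicate 1. Of 9 haem and iron genes 0 passed by limma in either genotype comparison, with 1 in each at an unadjusted p under 0.05 and 1 called by DESeq2 under GFP, and *Fth1*, the ferritin heavy chain, fell by 0.32 with YAP in KO hearts (limma adjusted p = 0.020). That count of 1 became 0 without KO/GFP replicate 1 or 4 or KO/YAP replicate 1 or 2, and with plain CPM.

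The summed neutrophil, macrophage, fibroblast and endothelial markers differed between the same groups, and the erythroid sum followed another order. In bulk tissue, fewer cells of a type and less RNA per cell cannot be told apart. The 6 neutrophil markers, of which 5 were listed, summed to 47.9 to 109 CPM in KO and 3.73 to 10.1 in WT, to 31.4 to 54.6 in KO/GFP and 6.09 to 12.7 in WT/GFP, and to 3.95 to 13.9 in KO/YAP. KO and KO/GFP were the high groups, as they were for *Mt2*, *Xdh* and *Gstm1*. *S100a8* was at 0 in at least 1 uninjected library and at 36.4 CPM in the highest. Macrophage markers summed to 50.5 to 96.2 CPM in KO and 96.7 to 115 in WT, and to 55.6 to 119 in KO/GFP, 119.9 to 194 in WT/GFP and 112 to 158 in KO/YAP, lower in KO/GFP than in WT/GFP as *Cybb* was. In uninjected hearts *Lyz2* of this list went the other way (log2 fold change 0.56, limma adjusted p = 0.22), while the other 6 tested were called lower. Fibroblast markers summed to 1142 to 1567 CPM in KO against 2132 to 2273 in WT, and to 1169 to 1664 in KO/GFP against 2043 to 2624 in KO/YAP. *Col1a1*, *Col1a2* and *Lum* of that list were called lower in both genotype comparisons and higher for YAP in KO hearts. *Dcn* was called under GFP and for YAP in KO. *Pdgfra* and *Tcf21* were called in none of these. Their log2 fold changes were -0.23 and -0.11 in uninjected hearts, -0.03 and -0.05 under GFP and 0.24 each for YAP in KO. Endothelial markers summed to 1046 to 1347 CPM in KO against 1461 to 1604 in WT, and to 1175 to 1230.3 in KO/GFP against 1349.9 to 1503 in WT/GFP and 1371 to 1411 in KO/YAP. The members of this list did not move together. For YAP in KO hearts 2 of the 6 were called higher and 1 lower. The lower one, *Emcn*, had log2 fold changes of 0.34 under GFP and -0.45 for YAP in KO (limma adjusted p = 0.12 and 0.036). *Pecam1* had -0.02 and -0.03. Erythroid markers summed to 1213 to 3119 in KO/GFP, 3393 to 8425 in WT/GFP, 1866 to 2061 in KO/YAP and 2665 to 3884 in WT/YAP. Of the erythroid markers 5 of 7 were lower in KO/GFP than in WT/GFP by limma, while 0 passed for KO/YAP over KO/GFP, where their median log2 fold change was 0.02, and 0 of 6 in uninjected hearts. Cardiomyocyte markers summed to 60784 to 78018 CPM in KO and 54736 to 61435 in WT, and overlapped between the injected groups. Within that list *Tnnt2*, cardiac troponin T, and *Pln*, phospholamban, were called without overlap in the same directions as *Sod1*. *Tnnt2* had log2 fold changes of 0.65 under GFP and -0.62 for YAP in KO (limma adjusted p = 0.0013 and 0.0017), *Pln* had 0.53 and -0.41 (adjusted p = 0.0022 and 0.0095), and their interactions were -0.88 and -0.48 (adjusted p = 0.0036 and 0.045). In uninjected hearts they had 0.60 and 1.38 (adjusted p = 0.045 and 0.043), and the other 5 markers of the list passed in none of these comparisons. Of those, *Actc1* and *Mb* went the other way, with -0.27 and -0.21 under GFP and 0.37 and 0.15 for YAP in KO. *Myh6*, *Tnni3* and *Ryr2* had the signs of *Tnnt2* and *Pln* in these comparisons of injected hearts. The part of these cell types in the levels of *Sod1*, *Nfe2l2* and the listed genes was not tested.

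**Figure D5:**
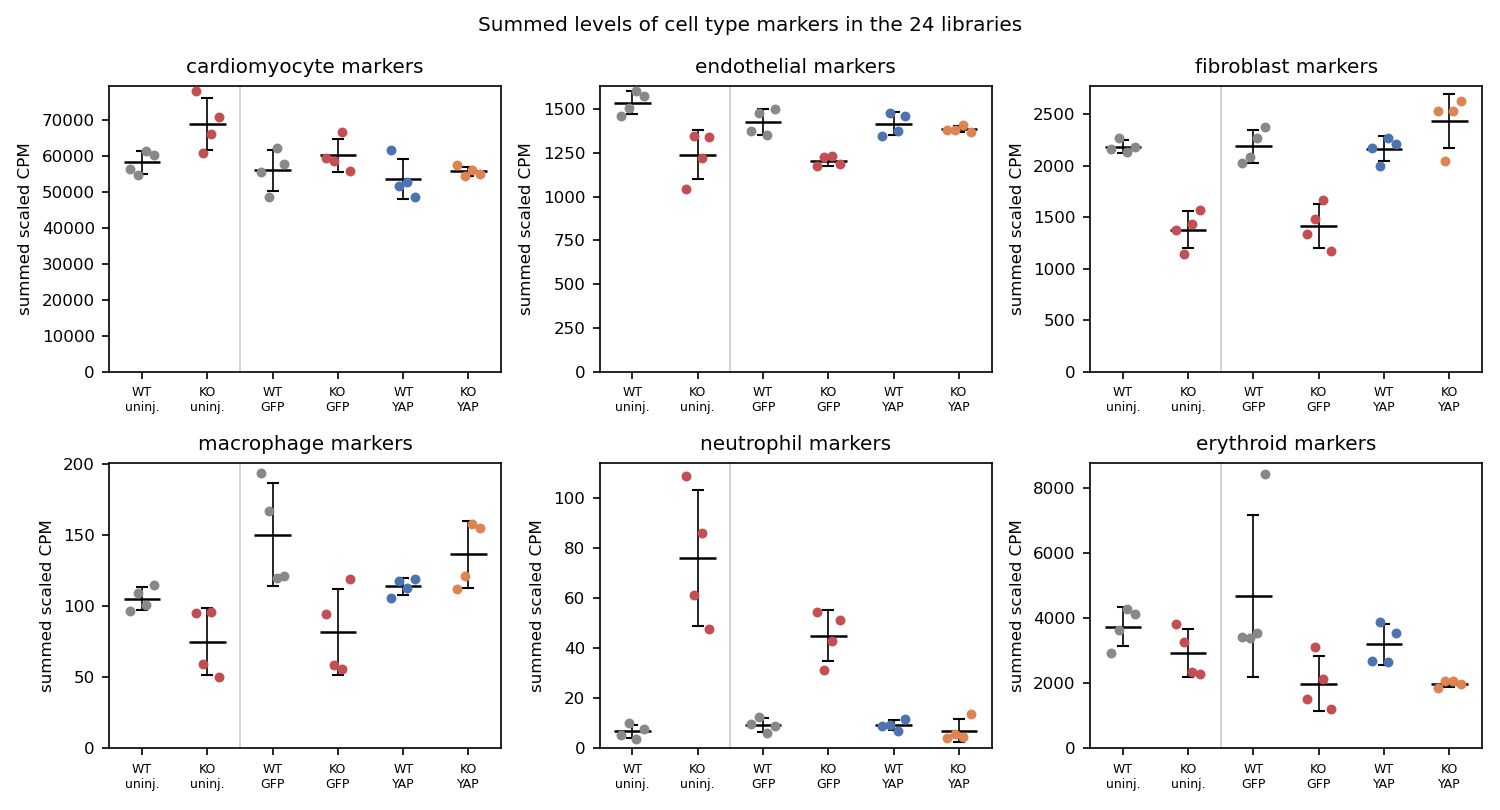
Summed levels of the markers of 6 cell types in the 24 libraries, each panel 1 list, with summed CPM on the vertical axis from 0, a point per library and the mean with the SD of 4 libraries. The neutrophil sum is high in KO and KO/GFP, and the fibroblast sum is low in the same groups. *Col1a1* and *Col1a2* have the highest levels in the fibroblast list.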

How the data were processed

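RNA was measured in 24 heart libraries, 4 per group, grouped by the titles that the labels give. Libraries were strand-specific and selected for polyA. According to the submitters' processing notes, reads were handled with cutadapt 2.3, FastQC, HISAT2 2.1.0, StringTie 1.3.4 and edgeR 3.26.1 on GRCm38. The authors deposited 2 tables of CPM values with an added scaling between libraries, a normalized signal whose columns summed to 942566 to 1134439 and so not to 1 fixed total. The scaling method was taken to be that of edgeR and is not given in the sources used here. Every value was a whole multiple of 1 read (100% within 0.1 read), so read counts were recovered from the deposited signal for the alternatives.

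IDs were named from GENCODE M21 (15655 of 15667 and 15314 of 15327 matched). Genes above 1 CPM in at least 0.5 of a table's libraries were tested with limma 3.58.1 (R 4.3.3, trend on) on log2(CPM + 1), with Benjamini-Hochberg adjustment over all genes tested and a call under 0.05. The study's methods name Fisher's exact test, which needs counts, so the fit for continuous values was used. The 16 injected libraries shared 1 fit. Fold changes on this scale understate changes of low genes. The labels number replicates, each title carries an ID of its own, and the study describes its replicates as biologically independent where possible. The members and gene lists were chosen with earlier results of these data known. Genes named were the 10 members, *Xirp2*, *Nnt*, up to 3 called genes with the largest change per list and comparison, and the 3 genes nearest in pattern to each called member. Lengths are of the longest principal transcript. Promoters came from RefSeq on GRCm38.p6. Alternatives were other scalings, filters and pseudocounts, edgeR 4.0.16 and DESeq2 1.42.0 on recovered reads, a replicate block, a *Ddx3y* covariate and leaving out each library. Summing *Sod1* with *Gm8566* was added after seeing the data. The fit was tested on simulated data. Tables were made with Python 3.11.15.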

Additional observations from a re-analysis of the deposited data

Results flagged for a closer look

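In 10 of 60 sets of 4 values, 1 library lay far from the other 3 by Dixon's test, where about 1 in 20, or 3 of the 60, would by chance. They were *Hmox1* in KO/YAP replicate 1 (10.8 CPM, low) and WT/YAP replicate 4 (16.3, high), *Nqo1* in KO/YAP replicate 4 (18.7, high) and WT/YAP replicate 4 (13.0, low), *Gclc* in WT/YAP replicate 3 (16.5, high) and *Sod2* in WT/YAP replicate 1 (381, high). *Prdx1* was high in uninjected KO replicate 1 (110.4 CPM), uninjected WT replicate 1 (165) and WT/YAP replicate 1 (189), and *Txnrd1* in uninjected WT replicate 3 (66.4). Of the 50-base words of the *Prdx1* transcript 10.9% were shared with other genes.

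The response to active YAP differed between KO and WT hearts for *Nfe2l2*, with an interaction of 0.57 on the log2 scale (limma adjusted p = 0.032), and for *Sod1*, with -0.70 (limma adjusted p = 0.010). The *Nfe2l2* call was lost with the replicate block (limma adjusted p = 0.060) and when any of 7 single hearts was left out (adjusted p up to 0.066).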

How the results depend on the processing

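Over the 70 values of a member in a comparison, 1791 alternatives were computed, of which 1773 stayed on the same side of the threshold in the same direction, 10 newly passed, 8 no longer passed and 0 reversed a call. The sign changed in 79 that passed neither way. Members called in uninjected hearts were 0 by limma, 2 by DESeq2 on recovered reads, 1 with the *Ddx3y* covariate and 0 to 2 with 1 library left out (2 without KO replicate 1, *Sod1* and *Gclc*, and 2 without KO replicate 4, *Sod1* and *Cat*). At an unadjusted p under 0.05 limma had 3517 genes there. Under GFP the count of 1 became 2 with plain CPM, through *Nfe2l2*, and 1 to 2 with 1 library left out, through *Cat* without KO/GFP replicate 2 or WT/GFP replicate 3. For YAP in KO hearts *Nfe2l2* and *Sod1* passed under every alternative run. For the interaction the count of 2 became 1 with the replicate block, which left *Nfe2l2* at 0.57 (limma adjusted p = 0.060) and *Sod1* past the test, and was 1 to 2 with 1 library left out. The block changed no other call of a member. In uninjected hearts it took the glutathione count from 7 to 3, the detoxification count from 4 to 1 and those of NRF2 regulators and NADPH supply from 1 to 0. Replicate numbers share only a number, with correlations of same-numbered deviations of -0.191 to 0.137 over genes.

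Plain CPM moved the median log2 fold change of all genes to -0.12 in uninjected hearts, -0.11 under GFP and 0.13 for YAP in KO, and the share of calls that were higher from 48.3% to 22.1%, from 47.1% to 25% and from 53.2% to 78.5%. In these the called members kept their direction, with *Sod1* at 0.41 under GFP and *Nfe2l2* at 0.69 and *Sod1* at -0.54 for YAP in KO. The number of genes called over all genes ranged from 379 (without WT replicate 1) to 2098 (without KO replicate 4) in uninjected hearts around 1044, with 2.47% of genes called under the replicate block in place of 6.69% and 1951 genes by DESeq2, from 930 (only the 2 groups fitted) to 2756 under GFP around 1993, from 1208 (only the 2 groups fitted) to 2745 for YAP in KO around 2156, and from 631 to 1545 for the interaction around 1104. KO/YAP over WT/YAP had 6 by limma and 71 by DESeq2, and KO/YAP over WT/GFP 3 and 24. Causes were not tested. *Gclm* was measured least precisely, with an interval of -0.74 to 0.75 in uninjected hearts and of -0.75 to 1.34 for the interaction.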
